A study of Mus musculus with 8 samples.

Results

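Il33 and 7 secreted cytokine genes linked to cellular senescence (Il6, Cxcl1, Cxcl12, Ccl2, Ccl7, Csf1 and Lif) were described in single-cell RNA-seq of SN4741 cells. They are 8 of the 31053 genes in the deposited tables, were found by their symbols, and all 8 passed the filter on low counts that left 15810 genes to test. Il33 was chosen by its level, which was higher at 39 °C in these libraries, so its temperature values are given as a description with no test. SN4741 is a mouse line labelled as neural precursor cells and derived from transgenic mice. It carries a temperature-sensitive viral T antigen under a fragment of the tyrosine hydroxylase promoter, and its karyotype is unstable and polyploid. There were 4 libraries from cultures at 37 °C in 10% serum (the permissive temperature) and 4 from cultures held for 48 hours at 39 °C in 0.5% serum (the non-permissive temperature). Temperature and serum changed together and cannot be told apart.

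IL-33 is a nuclear cytokine of the interleukin-1 family that is stored in the cell and released on damage. It signals through the receptor ST2 (encoded by Il1rl1) together with the accessory chain encoded by Il1rap, and in brain it is known mainly from glia. Senescent cells, which have left the cell cycle for good, secrete a mixture of cytokines, chemokines, growth factors and proteases, and the factors NF-kB and C/EBP beta are the best known drivers of its inflammatory members. IL-6 and LIF are related cytokines that share the signalling chain encoded by Il6st. CXCL1 attracts neutrophils, CCL2 and CCL7 attract monocytes, CXCL12 guides the migration of precursor cells, and CSF1 maintains macrophages and microglia.

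The promoters of 6 members were at hand (RefSeq, build GRCm38.p6, 250 bases before to 50 after a start site), and those of Il33, Il6, Cxcl1 and Lif are shown because these genes are inflammatory cytokines, of which Il33 and Lif were higher at 39 °C while Il6 and Cxcl1 did not pass the test. Capitals mark a kB site (GGGA, any base, then TTTCC), an AP-1 site (TGANTCA), a C/EBP site (TTGNNCAA) or a TATA box (TATAAA), each searched on both strands, and no matches overlapped. Il33 has 2 annotated start sites 20677 bases apart, at chr19:29924863-29925162 and chr19:29945540-29945839, both on the plus strand of chromosome 19. The others lie at chr5:30012864-30013163, chr5:90890995-90891294 and chr11:4257318-4257617, all on the plus strand.
Il33, first start site: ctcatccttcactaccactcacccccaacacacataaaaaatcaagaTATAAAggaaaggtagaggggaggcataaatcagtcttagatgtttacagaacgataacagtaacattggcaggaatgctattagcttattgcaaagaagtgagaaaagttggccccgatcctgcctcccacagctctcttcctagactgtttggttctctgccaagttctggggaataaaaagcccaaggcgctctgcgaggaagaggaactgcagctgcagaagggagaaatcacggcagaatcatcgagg
Il33, second start site: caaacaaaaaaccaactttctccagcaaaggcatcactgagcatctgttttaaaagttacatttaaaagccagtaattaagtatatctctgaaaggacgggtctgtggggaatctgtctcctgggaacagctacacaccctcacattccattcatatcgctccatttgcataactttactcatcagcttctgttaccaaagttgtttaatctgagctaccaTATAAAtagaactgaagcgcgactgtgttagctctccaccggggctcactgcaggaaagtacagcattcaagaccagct
Il6: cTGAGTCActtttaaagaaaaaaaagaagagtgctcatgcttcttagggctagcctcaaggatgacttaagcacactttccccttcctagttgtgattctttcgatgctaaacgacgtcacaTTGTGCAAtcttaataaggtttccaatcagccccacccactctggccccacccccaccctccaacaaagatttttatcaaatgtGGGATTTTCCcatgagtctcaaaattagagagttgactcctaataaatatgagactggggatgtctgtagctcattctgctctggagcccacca
Cxcl1: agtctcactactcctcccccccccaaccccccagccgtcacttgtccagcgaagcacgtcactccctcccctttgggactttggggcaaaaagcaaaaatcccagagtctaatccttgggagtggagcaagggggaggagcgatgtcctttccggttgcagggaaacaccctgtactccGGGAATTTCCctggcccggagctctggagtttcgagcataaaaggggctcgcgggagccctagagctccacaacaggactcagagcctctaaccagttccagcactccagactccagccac
Lif: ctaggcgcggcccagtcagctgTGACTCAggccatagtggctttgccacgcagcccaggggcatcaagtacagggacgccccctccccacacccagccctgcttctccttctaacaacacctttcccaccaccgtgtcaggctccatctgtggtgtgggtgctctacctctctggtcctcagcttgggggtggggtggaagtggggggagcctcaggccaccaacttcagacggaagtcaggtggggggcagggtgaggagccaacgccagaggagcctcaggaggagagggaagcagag

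Il6 held a kB match 44 bases before its start site, a C/EBP match 128 bases before and an AP-1 match 249 bases before. Cxcl1 held a kB match 71 bases before its start site. Lif held an AP-1 match 228 bases before its start site and no kB match in the window. Both Il33 windows held a TATA box match, 203 and 29 bases before the start, and no match to the other 3 motifs. Csf1 held a kB match on the reverse strand 154 bases before its start, and Cxcl12 held no match to any of the 4. Of all 32851 promoters of this length, 0.411% held the kB letters, 7.81% the AP-1 letters, 6.4% the C/EBP letters and 13.6% the TATA box letters. A match describes the sequence and was not tested as a site. The reads come from transcript 3' ends, so transcripts from the 2 Il33 start sites cannot be told apart.

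After the study's cell limits, 18351 of 19125 cells remained (8550 from 37 °C, 9801 from 39 °C). A library held between 17166686 and 29633818 UMIs (counted molecules). At most 5 barcodes were shared by a pair of libraries. Median UMIs per cell ran from 9839 to 15413 at 37 °C and from 6676 to 16665 at 39 °C. The median mitochondrial share was 7.55% to 7.89% at 37 °C and 8.04% to 8.85% at 39 °C. Cells assigned to G1 made up 20.6% to 28.7% of each 37 °C library and 82.5% to 85.4% of each 39 °C library. The labelled cell type was only partly reflected by its markers. Sox1, Pax6 and Hes5 had at most 3 UMIs in all cells together, while Vim, Sox2, Notch1 and Nes were present. Of the 5 precursor markers tested 3 rose at 39 °C (Notch1 by 1.09 and Sox2 by 0.47 on the log2 scale, and Msi1, which had 2 and 10 UMIs), Nes fell by 2.11 and Vim did not pass the test (edgeR), against 31.5% of all genes that rose and 30.5% that fell. Olig1, Olig2, Sox10 and Mog of the oligodendrocyte lineage and Tyrobp of myeloid cells had no UMI, which allows up to 3 counts. The 8 macrophage and microglia markers summed to 21.5 to 25.0 CPM at 37 °C and 30.3 to 39.7 CPM at 39 °C, led by Cd68 and Lyz2. The 10 oligodendrocyte markers summed to 40.7 to 42.7 and 43.7 to 47.0 CPM, the 8 fibroblast markers to 1810 to 1882 and 907 to 941 CPM, the 9 neural precursor markers to 5886 to 6217 and 5659 to 6269 CPM, and the 5 endothelial and 6 epithelial markers to under 10 CPM in every library. Of the precursor markers Vim alone averaged 5396 and 5166 CPM, and 5 of the 9 stayed under 1 CPM in every library. The fibroblast sum was mostly Col1a1 (means of 1027 and 575 CPM) and Col1a2 (678 and 182 CPM). Of these 8 markers 3 stayed under 1 CPM in every library, and Twist1 rose by 0.47 on the log2 scale. The part of all these markers in the results was not tested.

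Between temperatures the 8 genes did not move as 1 group. Il33 was 5.46-fold higher at 39 °C, Lif rose 1.87-fold, Ccl2 fell 1.61-fold, and the other 5 did not pass the test. Levels are CPM, a gene's UMIs summed over the cells of a library and scaled by the library's UMIs of all tested genes and edgeR's TMM factor, and changes are log2 fold changes of 39 °C over 37 °C. Of the 7 members tested, 1 rose and 1 fell at an adjusted p under 0.05 (edgeR), against 31.5% and 30.5% of all 15810 genes. The median change of all genes was 0.02. Neither Lif nor Ccl2 reached the study's stricter limits for its bulk RNA-seq (adjusted p under 0.01 with a change over 1.5), which 2.21% of all genes passed upward and 3.62% downward. Where nothing in the labels says that libraries came from separate cultures, p-values measure only the spread between these libraries, which may be technical.

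**Figure D1:**
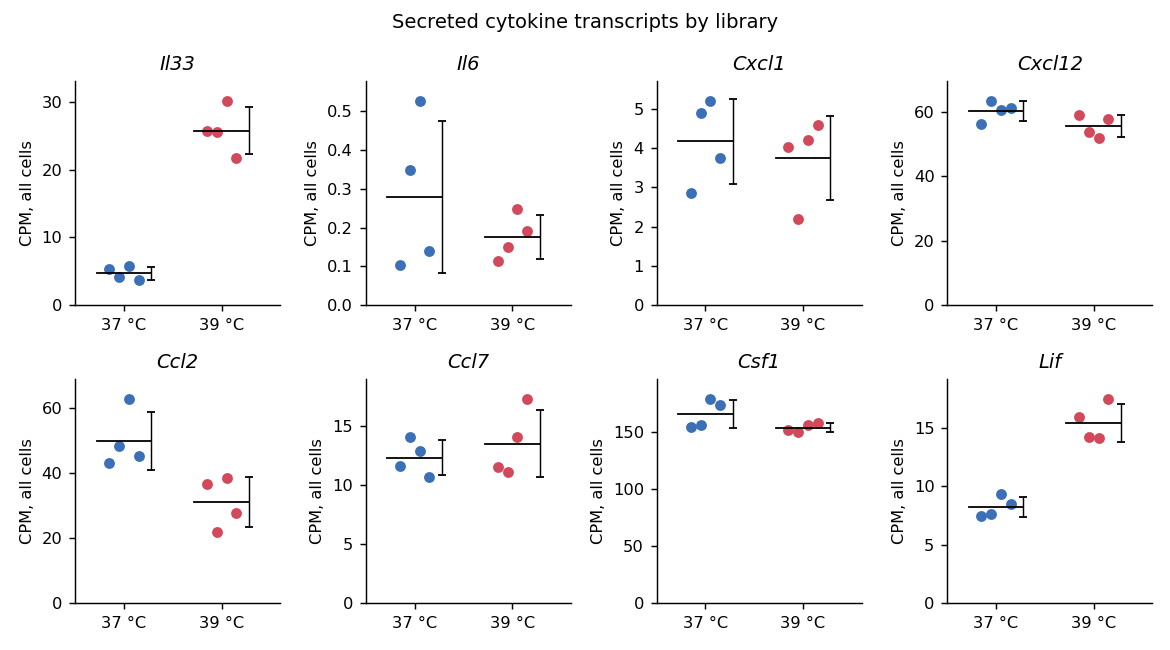
Level of each of the 8 genes (CPM over all cells, linear axis from 0) in every library at 37 °C (blue) and 39 °C (red). Each point is a library, horizontal lines are means and bars are SD (n = 4). Il33 and Lif are higher in all 4 libraries at 39 °C, Ccl2 is lower in all 4, and the other 5 genes overlap between temperatures.

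Il33 stood at 5.28, 4.11, 5.78 and 3.65 CPM in the libraries at 37 °C and at 25.8, 25.5, 30.1 and 21.7 CPM at 39 °C. Every 39 °C library was above every 37 °C library, as for 28.7% of all genes. The means were 4.71 ± 0.993 and 25.8 ± 3.44 CPM (SD, n = 4), from 529 and 2540 UMIs, a log2 fold change of 2.45 ± 0.12 (SE).

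Lif, the IL-6 family member, had 7.44, 7.60, 9.32 and 8.50 CPM at 37 °C and 15.9, 14.2, 14.1 and 17.5 CPM at 39 °C. The temperatures did not overlap, and the log2 fold change was 0.90 ± 0.09 (SE, edgeR, adjusted p = 2.07e-08). Il6, its relative, was barely detected at either temperature. The libraries held 3, 9, 15 and 4 Il6 UMIs at 37 °C and 2, 4, 7 and 5 at 39 °C. The Il6 log2 fold change was -0.59 with a 95% interval of -1.58 to 0.40 (edgeR, adjusted p = 0.328), an interval that holds both falls and rises at this depth.

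Among the monocyte chemokines, Ccl2 had 43.0, 48.4, 62.9 and 45.4 CPM at 37 °C and 36.8, 22.0, 38.4 and 27.7 CPM at 39 °C. Every 39 °C library was below every 37 °C library, as for 28% of all genes, and the log2 fold change was -0.68 ± 0.13 (SE, edgeR, adjusted p = 1.66e-04). Ccl7, whose gene lies 8258 bases beyond Ccl2 on chromosome 11, had 11.6, 14.1, 12.9 and 10.7 CPM at 37 °C and 11.6, 11.1, 14.1 and 17.3 CPM at 39 °C. The temperatures overlapped for Ccl7, with a log2 fold change of 0.15 and a 95% interval of -0.08 to 0.37 (edgeR, adjusted p = 0.280).

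Of the CXC chemokines, Cxcl1 ranged from 2.85 to 5.19 CPM at 37 °C and from 2.20 to 4.59 CPM at 39 °C (log2 fold change -0.15, 95% interval -0.53 to 0.23, edgeR adjusted p = 0.521). Cxcl12 ranged from 56.1 to 63.1 and from 51.8 to 58.9 CPM (log2 fold change -0.12, 95% interval -0.22 to -0.02, edgeR adjusted p = 0.0558). The growth factor Csf1 ranged from 155 to 179 and from 150.2 to 158 CPM (log2 fold change -0.11, 95% interval -0.21 to -0.01, edgeR adjusted p = 0.0821). All 3 genes overlapped between temperatures. The Cxcl12 and Csf1 values lay close to the threshold, and both passed it as lower without the first 37 °C library (edgeR, adjusted p = 0.00689 and 0.0135).

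Since the cultures differed so much in their share of G1 cells, the contrast was repeated in cells assigned to G1 alone. In these cells Il33 was 2.27-fold higher at 39 °C, at 12.3, 13.9, 17.6 and 9.32 CPM in the 37 °C libraries and 30.0, 29.7, 35.0 and 25.6 CPM in the 39 °C libraries. The temperatures still did not overlap, as for 23.7% of genes upward and 20.3% downward, but the ratio was smaller than the 5.46-fold over all cells. With phases scored within each library in place of all cells together, the log2 fold change of Il33 in G1 cells was 1.85 in place of 1.18. Of the other 7 members, Lif rose and Ccl2 and Cxcl12 fell, against 24.8% of 14712 genes that rose and 22.4% that fell (edgeR). The median change of all genes was 0.04.

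The Lif log2 fold change in G1 cells was 1.06 ± 0.12 (SE, edgeR, adjusted p = 8.93e-08), with library means of 7.42 and 15.5 CPM. For Ccl2 it was -0.91 ± 0.18 (edgeR, adjusted p = 2.12e-04), with means of 52.2 ± 22.0 and 27.6 ± 6.15 CPM (SD, n = 4). For Cxcl12 it was -0.34 ± 0.07 (edgeR, adjusted p = 2.64e-04), with means of 64.9 and 51.4 CPM. Cxcl1 (-0.60), Ccl7 (-0.31), Csf1 (0.14) and Il6 (-0.65) did not pass the test in G1 cells (edgeR, adjusted p = 0.0797, 0.0921, 0.0645 and 0.470). These calls turned on single libraries. Cxcl1 passed as lower without the first 37 °C library (-0.91) or the first 39 °C library (-0.64), Ccl7 passed as lower without the fourth 39 °C library (-0.48), and Csf1 passed as higher without the third or the fourth 37 °C library (0.18 each).

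**Figure D2:**
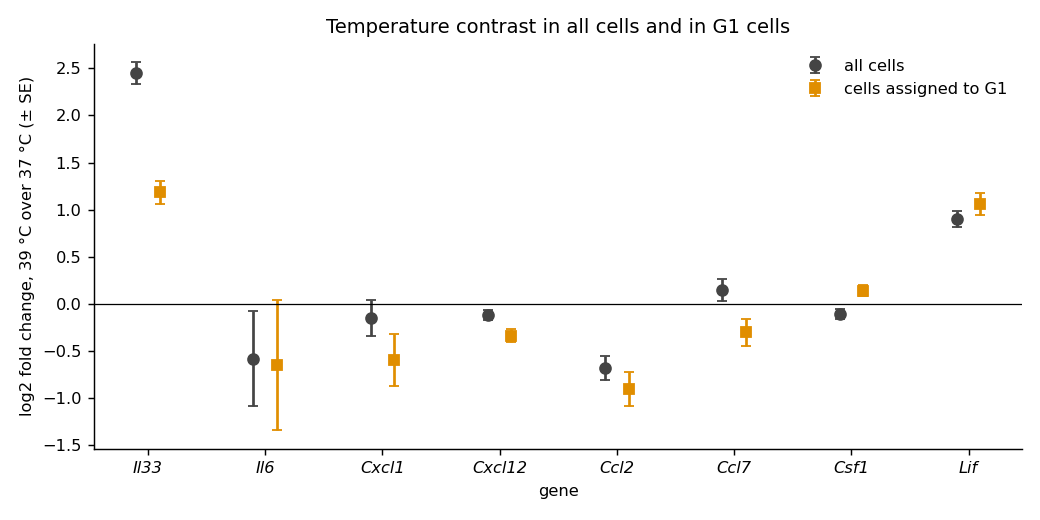
Log2 fold change of 39 °C over 37 °C with its SE for each gene, in all cells (grey circles) and in cells assigned to G1 (orange squares), from sums over 4 libraries per temperature. Il33 goes from 2.45 in all cells to 1.18 in G1 cells, while Lif stays near 1 and Ccl2 is negative in both. The Il33 values carry no test.

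The members were also compared by cell cycle class. For Il33 this is not apart from the rule that chose it, since G1 cells were far more common at 39 °C. A gene chosen as higher there is favoured to be higher in G1 cells. Each library was split into G1 cells and cycling cells (those assigned to S or G2M), and the classes were compared within libraries. Il33 was higher in G1 cells at both temperatures, 5.32-fold at 37 °C and 7.73-fold at 39 °C. At 39 °C 5 members were lower in G1 than in cycling cells, namely Cxcl1, Cxcl12, Ccl2, Ccl7 and Csf1, whereas at 37 °C only Csf1 was lower and Ccl7 was higher. Members passing the test were 2 higher and 1 lower at 37 °C, against 18.4% and 25% of 14745 genes, and 1 higher and 5 lower at 39 °C, against 21.1% and 19.2% (edgeR). Il33 is 1 of those counted as higher at each temperature. The median change of all genes was -0.03 at 37 °C and 0.02 at 39 °C.

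Il33 in the 37 °C libraries stood at 12.3, 13.9, 17.4 and 9.29 CPM in G1 cells and at 3.03, 1.55, 2.85 and 2.36 CPM in cycling cells of the same libraries. The log2 difference was 2.41 ± 0.13 (SE, edgeR, adjusted p = 7.72e-75). In the 39 °C libraries it stood at 29.7, 29.7, 34.7 and 25.4 CPM in G1 cells and at 3.19, 3.06, 4.73 and 4.13 CPM in cycling cells, with a log2 difference of 2.95 ± 0.14 (edgeR, adjusted p = 7.19e-99). Every library showed the same order at both temperatures. The cycling cells at 39 °C held 58 Il33 UMIs in all. edgeR fitted 1 common trend of spread to all genes in these split libraries, which makes its p-values very small. The SE and p-values of every class contrast and its change rest on that trend, not on a gene's own spread. With limma-voom, which was added after seeing the data, the adjusted p of Il33 was 6.77e-19 at 37 °C and 5.55e-16 at 39 °C. Since the choice of Il33 favoured this direction, its p-values here are no independent support. The 2 log2 values lay 0.54 apart, which is given without a test since Il33 was chosen by its level at 39 °C. In cycling cells the Il33 means were 2.45 ± 0.660 and 3.78 ± 0.794 CPM (SD, n = 4) at 37 and 39 °C, given without a test.

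**Figure D3:**
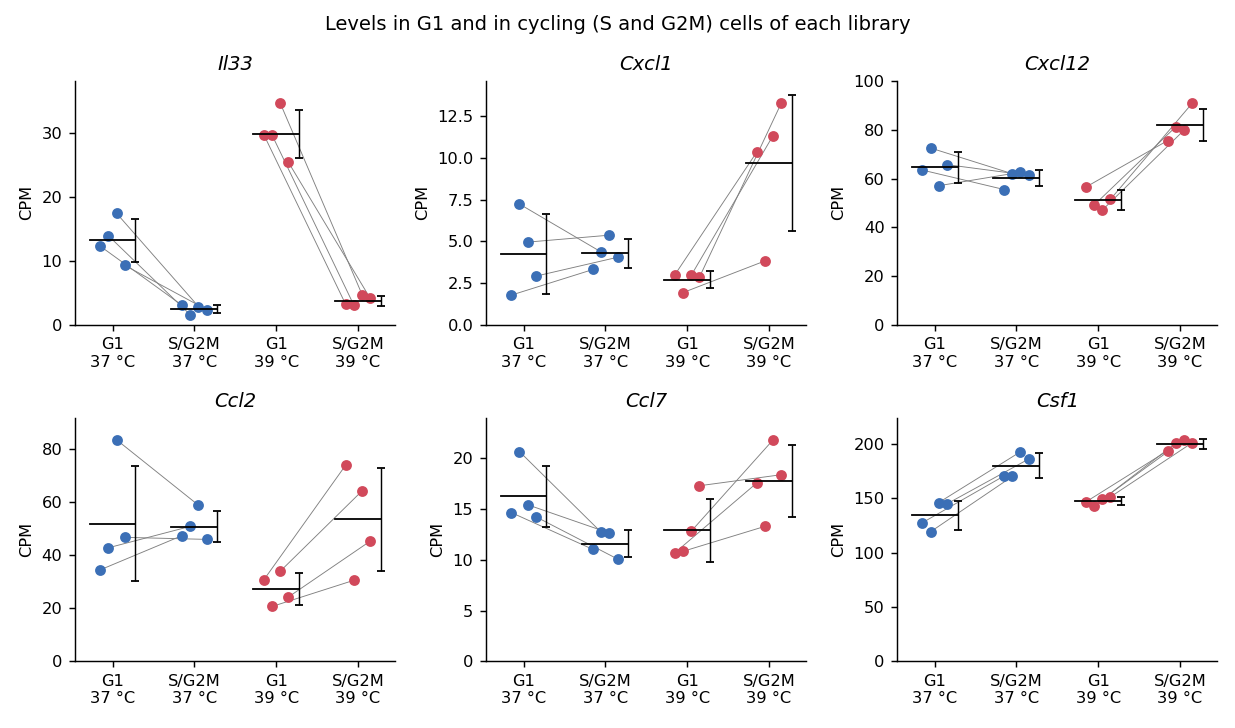
CPM (linear axis from 0) of 6 genes in G1 and in cycling (S and G2M) cells of each library at 37 °C (blue) and 39 °C (red). Points are libraries, grey lines join the classes of 1 library, horizontal lines are means and bars are SD (n = 4). Il33 is higher in G1 cells in all 8 libraries, and Cxcl1, Cxcl12, Ccl2 and Ccl7 are higher in cycling cells in all 4 libraries at 39 °C.

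For the chemokines the difference between G1 and the pooled cycling cells changed with temperature. Cxcl1 at 39 °C had 3.00, 1.93, 2.97 and 2.85 CPM in G1 cells and 10.4, 3.83, 11.4 and 13.3 CPM in cycling cells, a log2 difference of -1.85 ± 0.17 (SE, edgeR, adjusted p = 8.90e-26). At 37 °C the classes overlapped, with means of 4.22 and 4.27 CPM. The change of the Cxcl1 contrast from 37 to 39 °C was -1.79 ± 0.25 (edgeR, adjusted p = 2.74e-11). The second 39 °C library had the lowest Cxcl1 level in both classes. In the fourth 39 °C library a single cell held 25 of the library's 119 Cxcl1 UMIs.

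Cxcl12 at 39 °C had 56.6, 49.1, 47.1 and 51.5 CPM in G1 cells and 75.7, 81.4, 79.9 and 91.0 CPM in cycling cells, a log2 difference of -0.71 ± 0.05 (SE, edgeR, adjusted p = 1.97e-38). The classes did not overlap there, while at 37 °C they did, with means of 64.7 ± 6.39 and 60.4 ± 3.28 CPM (SD, n = 4) and a log2 difference of 0.10 (edgeR, adjusted p = 0.0754). That value depended on the processing. It passed as higher with RLE factors (0.14), library totals only (0.17), filterByExpr (0.13) and updated phase lists (0.12), against G2M cells alone (0.41), and without the third 37 °C library (0.17) or the first 39 °C library (0.12), and it was -0.12 against S cells alone. The change of the Cxcl12 contrast was -0.81 ± 0.07 (edgeR, adjusted p = 4.03e-27).

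Ccl2 at 39 °C had 30.8, 20.7, 34.0 and 24.3 CPM in G1 cells and 74.1, 30.6, 64.3 and 45.4 CPM in cycling cells, a log2 difference of -0.93 ± 0.07 (SE, edgeR, adjusted p = 2.97e-41). At 37 °C it had 34.6, 42.9, 83.6 and 46.8 CPM in G1 cells and 47.5, 51.0, 58.9 and 46.0 CPM in cycling cells. The third 37 °C library stood far above the rest in G1 cells. Without that library the 37 °C log2 difference was -0.23 and passed the test (edgeR, adjusted p = 0.00146), against 0.01 with it (adjusted p = 0.927), and without the first library it was 0.15 (adjusted p = 0.0338). The change of the Ccl2 contrast was -0.93 ± 0.09 (edgeR, adjusted p = 1.51e-25) with all libraries. That SE rests on the common trend and not on the spread of Ccl2 between libraries.

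With S and G2M cells pooled, Ccl7 went opposite ways at the 2 temperatures. At 37 °C it had 14.6, 20.6, 15.4 and 14.2 CPM in G1 cells and 10.99, 12.7, 12.6 and 10.1 CPM in cycling cells, a log2 difference of 0.48 ± 0.09 (SE, edgeR, adjusted p = 1.63e-06). At 39 °C it had 10.7, 10.8, 12.8 and 17.3 CPM in G1 cells and 17.5, 13.3, 21.8 and 18.3 CPM in cycling cells, a log2 difference of -0.44 ± 0.11 (edgeR, adjusted p = 1.35e-04). Each library followed the direction of its temperature, though without the third 39 °C library the value there was -0.29 and missed the threshold (edgeR, adjusted p = 0.0580). The change of the contrast was -0.92 ± 0.14 (edgeR, adjusted p = 3.77e-09). Against G2M cells alone that change was -0.03 (edgeR, adjusted p = 0.971). Mean Ccl7 was then higher in G1 than in G2M cells at both temperatures (16.6 and 9.31 CPM at 37 °C, 12.9 and 6.54 CPM at 39 °C). In all, 4 of the 7 members other than Il33 had a more negative contrast at 39 °C, against 5.13% of all genes, and none a more positive one, against 11.1%. With limma-voom the same 4 changes passed (adjusted p = 1.31e-06 for Cxcl1, 2.23e-11 for Cxcl12, 1.88e-07 for Ccl2 and 6.15e-06 for Ccl7).

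Csf1 was lower in G1 cells by nearly the same amount at both temperatures, with log2 differences of -0.42 ± 0.03 at 37 °C and -0.44 ± 0.04 at 39 °C (SE, edgeR, adjusted p = 1.31e-34 and 1.76e-33) and an interval of the change of -0.12 to 0.08. Lif did not pass the test at either temperature (-0.22 and -0.06, edgeR, adjusted p = 0.143 and 0.728), but with cells thinned to 5000 UMIs the 37 °C value was -0.51 and passed (edgeR, adjusted p = 0.0476). Its 39 °C means were 15.4 CPM in G1 cells and 15.9 CPM in cycling cells, against 7.40 and 8.64 CPM at 37 °C, so that Lif was higher at 39 °C in both classes. Il6 had 3 UMIs in the cycling cells at 39 °C and 15 in G1 cells, too few to compare.

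The cycling class differed in make-up between temperatures. A 37 °C library held 687 to 1126 S cells and 566 to 997 G2M cells. A 39 °C library held 115 to 423 and 29 to 187. S cells, the larger part of the cycling class at 39 °C, held most of its Cxcl12, Ccl2 and Ccl7 UMIs. Mean Cxcl12 levels at 39 °C were 51.0 CPM in G1, 94.1 CPM in S and 52.0 CPM in G2M cells. Ccl2 averaged 27.5, 62.9 and 27.5 CPM, and Ccl7 12.9, 22.1 and 6.54 CPM in the same order. For these 3 genes the S cells stood above both other classes at 39 °C. At 37 °C the S and G2M means were 70.1 and 48.9 CPM for Cxcl12, 53.7 and 46.9 for Ccl2, and 13.5 and 9.31 for Ccl7. Against G2M cells alone, Cxcl12 and Ccl2 no longer differed by the test from G1 cells at 39 °C (log2 differences of -0.11 and -0.15, edgeR, adjusted p = 0.501 and 0.574), and Ccl7 was higher in G1 cells (0.77, edgeR, adjusted p = 0.00794). Cxcl1 averaged 2.69, 8.37 and 12.3 CPM in G1, S and G2M cells at 39 °C, the last from 3.45 to 28.4 CPM over libraries. The 28.4 CPM came from the fourth library, with 38 UMIs. A cell of that library, whose class was not looked up, held 25 of its 119 Cxcl1 UMIs. The G2M cells at 39 °C were few, with 29 to 187 per library, and 62 Cxcl1 and 36 Ccl7 UMIs in all. Il33 averaged 29.9, 3.99 and 3.18 CPM in G1, S and G2M cells at 39 °C and 13.6, 3.33 and 1.47 CPM at 37 °C, and its G1 excess held against S and against G2M cells alone at both temperatures. As a check of the classes with a gene outside the scoring lists, the cyclin gene Ccna2 averaged 1.12, 12.5 and 94.6 CPM in G1, S and G2M cells at 39 °C and 4.70, 40.0 and 185 CPM at 37 °C.

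Il33 UMIs were found in few cells at either temperature. At this depth a cell with no Il33 UMI may still have expressed the gene, so the shares count cells with a UMI and not cells that express it. At least 1 Il33 UMI was found in 3.58% ± 0.725 of kept cells at 37 °C and in 11.1% ± 2.27 at 39 °C (SD over 4 libraries). With every cell thinned to 5000 UMIs, which left out 668 and 1668 shallower cells, the shares were 1.76% ± 0.378 and 7.59% ± 0.790, and ran from 1.25% to 2.15% and from 6.96% to 8.73%. Free RNA in droplets can give single UMIs, and since all cells come from 1 line no cell type without these genes was at hand to gauge it. Among thinned G1 cells 4.18% at 37 °C and 8.74% at 39 °C had an Il33 UMI, and among thinned cycling cells 1.04% and 1.20%. The share in cycling cells at 39 °C ran from 0.279% to 2.83% over libraries, a range that holds the 37 °C value.

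The other members differed widely in how their UMIs were spread over cells. Csf1 was found in 49.6% of thinned cells at 37 °C and 48.6% at 39 °C, and Cxcl12 in 22.7% and 19.98%. Lif was found in 3.78% and 6.72%, mostly as single UMIs (95.6% and 94.2% of the cells that had it). Ccl2 was found in 12.1% and 8.05%, Ccl7 in 4.15% and 4.27%, and Cxcl1 in 1.79% and 1.49%. Among all kept cells the top 1% by Ccl2 count held 32.7% of Ccl2 UMIs at 37 °C and 39.8% at 39 °C, with up to 83 UMIs in 1 cell. For Cxcl1, with 464 and 367 UMIs in all, the top 1% held 41.6% and 58.6%, though few UMIs alone raise this share. For Csf1 the top 1% of cells held 6.44% and 7.44% of its UMIs. Ccl2 was thus concentrated in few cells and Csf1 spread over most.

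Ccl2 and Ccl7 were the only pair of members with a mean correlation over 0.12 in size across cells. Their Pearson r over thinned cells averaged 0.341 at 37 °C (0.300 to 0.439 over libraries) and 0.322 at 39 °C (0.214 to 0.425), a description over cells of the same libraries. At 37 °C 51.6% of the 322 Ccl7-positive cells also had a Ccl2 UMI, against 10.4% of the other cells. At 39 °C it was 38.9% of 365 cells against 6.54%. The 2 shares did not overlap over libraries at either temperature. Cells with an Il33 UMI at 39 °C (617 after thinning) showed Ccl2 in 3.73% against 8.34% of other cells, Ccl7 in 1.78% against 4.71% and Cxcl12 in 12.6% against 20.4%, with no overlap of the libraries and no test. Cxcl1 was also lower with no overlap (0.648%, from 4 cells, against 1.62%). Lif was seen in 5.84% of the Il33 cells and 6.84% of the others, and Csf1 in 44.4% and 48.9%, and the libraries overlapped for both. The share of all genes without such overlap was not computed. Of the 617 cells 601 were assigned to G1. Thinned G1 cells there had Ccl2 in 7.27% against 12.3% of cycling cells, Ccl7 in 4.00% against 5.72% and Cxcl12 in 18.4% against 28.4%. Il33 cells were not compared within G1 alone. At 37 °C, with 137 cells that had an Il33 UMI, Cxcl12 was again lower with no overlap (14.6% against 22.7%). Csf1 was lower with no overlap there too (39.4% against 49.95%). The libraries overlapped for Ccl2 (10.95% against 12.1%) and Ccl7 (4.38% against 4.08%).

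The gene patterns most like that of Il33 were found by Pearson r. Over the 8 libraries these were Rhebl1 (0.999), Slc31a2 (0.998), Acvr1 (0.997), Lmbrd1 (0.996) and Hook2 (0.996), out of 8357 genes with a mean of at least 10 CPM. All of these were higher at 39 °C, and 1465 genes had an r over 0.95, since any gene that splits the temperatures cleanly scores high. Over single cells at 39 °C, where temperature does not enter, genes among the leading 5 of 8319 compared were Pla2g7 (0.221), Tspan8 (0.193), Timp3 (0.178) and Col1a1 (0.172), as means over 4 libraries. Pla2g7 encodes a secreted phospholipase that inactivates platelet-activating factor, Timp3 an inhibitor of metalloproteases and Col1a1 a collagen chain. All 4 values are weak.

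The receptors for the members were read from a list of 15 genes. Of 11 that passed the filter 5 rose, 1 fell and 5 did not pass the test, against 31.5% of all genes that rose and 30.5% that fell, with a median change of 0.37 against 0.02 for all genes. Il1rl1, the gene of the IL-33 receptor, was the one that fell. It had 13.5, 15.5, 15.6 and 16.9 CPM at 37 °C and 3.57, 2.61, 4.00 and 2.93 CPM at 39 °C, and the temperatures did not overlap. The log2 fold change was -2.23 ± 0.11 (SE, edgeR, adjusted p = 1.03e-12), a 4.69-fold fall, and in G1 cells it was -1.52 (edgeR, adjusted p = 2.25e-06). The membrane and the soluble form of this receptor were not told apart. Il1rap, the second chain, rose from 3.89 to 5.70 CPM (log2 fold change 0.54 ± 0.09, edgeR, adjusted p = 3.90e-05).

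Il6ra, the IL-6 receptor chain, rose 3.21-fold, from 29.0, 24.9, 23.0 and 24.9 CPM to 78.0, 84.4, 82.7 and 81.9 CPM (log2 fold change 1.68 ± 0.06, edgeR, adjusted p = 1.06e-14). Osmr, the oncostatin M receptor, rose from 0.929 to 3.36 CPM, and Il6st, the shared signalling chain, from 38.2 to 45.0 CPM. Ackr3, a scavenging receptor for CXCL12, rose from 13.2 to 22.5 CPM (log2 fold change 0.78 ± 0.07, edgeR, adjusted p = 1.89e-08). In G1 cells the rises were smaller but passed the test (edgeR). The log2 fold changes there were 1.25 for Il6ra, 1.26 for Osmr, 0.20 for Il6st, 0.29 for Ackr3 and 0.41 for Il1rap. Lifr, Csf1r, Cxcr2 and Cxcr4 did not pass the test and averaged 0.0698 to 0.286 CPM at either temperature.

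**Figure D4:**
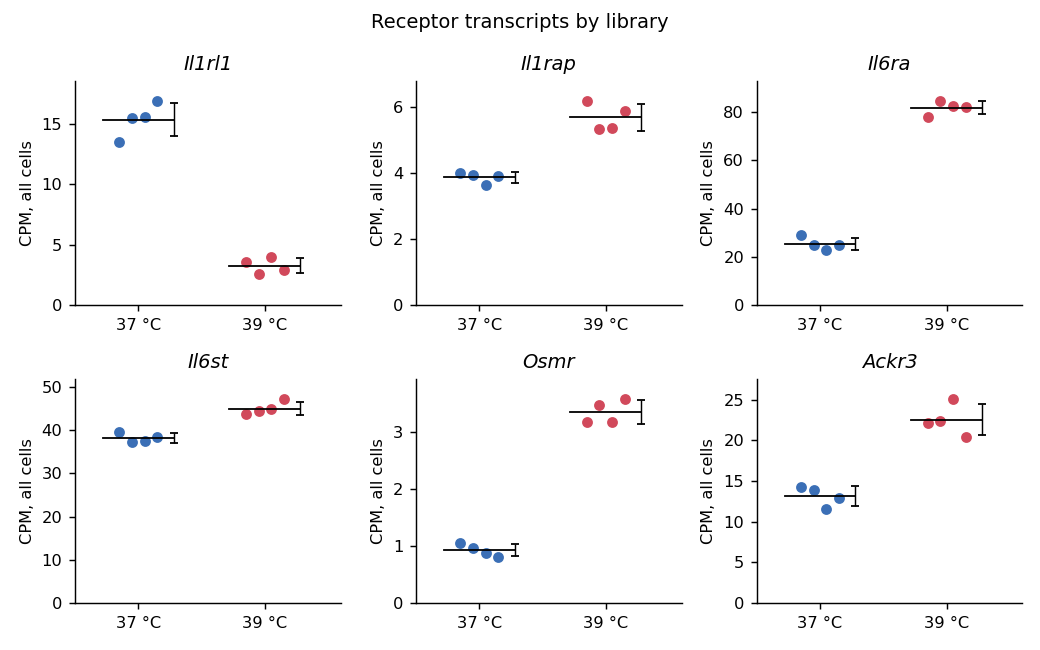
CPM over all cells (linear axis from 0) of the 6 receptor genes that passed the test, in every library at 37 °C (blue) and 39 °C (red). Points are libraries, horizontal lines are means and bars are SD (n = 4). Il1rl1 is lower in all 4 libraries at 39 °C and the other 5 are higher in all 4.

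Of 41 other cytokines, 29 passed the filter, of which 10 rose, 9 fell and 10 did not pass the test, with a median change of -0.05. These counts are close to the 31.5% and 30.5% of all genes. Il15, a growth factor of natural killer and memory T cells, rose from 4.07 to 8.29 CPM, Cx3cl1, the ligand of a microglial receptor, from 5.87 to 11.6 CPM, and Clcf1, another IL-6 family member, from 15.4 to 28.7 CPM. Tgfb2 fell from 162 to 74.9 CPM (log2 fold change -1.12 ± 0.05, edgeR, adjusted p = 4.82e-13). Il1a and Il1b, the interleukin-1 genes best known from senescent cells, had no UMI in any library, which allows up to 3 counts.

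Of 33 tested genes of the NF-kB and C/EBP pathways 19 rose, 4 fell and 10 did not pass the test (31.5% and 30.5% of all genes rose and fell), with a median change of 0.24. Cebpb, the gene of C/EBP beta, rose from 163 to 286 CPM (log2 fold change 0.82 ± 0.06, edgeR, adjusted p = 2.60e-10). Ddit3, a stress-induced C/EBP family member, rose 2.08-fold, and the kinase genes Ikbke and Chuk rose 2.08-fold and 1.65-fold. The NF-kB subunit genes moved less on the log2 scale. Rela, Relb and Nfkb1 rose by 0.24, 0.17 and 0.13, Rel fell by 0.16, and Nfkb2 (-0.11) did not pass the test (edgeR). The list also holds Stat3, Socs3, Zfp36 and Gata4. In G1 cells 19 of 33 rose and 3 fell, against 24.8% and 22.4% of all genes.

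Of 35 tested genes of other senescence-linked secreted proteins 14 rose, 13 fell and 8 did not pass the test, against 31.5% and 30.5% of all genes, with a median change of -0.02. The growth factor gene Fgf2 rose 4.25-fold, Igfbp3 4.16-fold and Angptl4 2.62-fold, and Igfbp6 fell 2.82-fold. Of 15 senescence markers 5 rose, 7 fell and 3 did not pass the test, against the same shares of all genes, with a median change of -0.07. Lmnb1, the lamin B1 gene, fell by 1.94 on the log2 scale in all cells and by 1.19 in G1 cells. Hmgb2, a chromatin protein gene of cycling cells, fell by 2.04 and by 0.22, and in G1 cells it missed the threshold without the second 37 °C library (-0.18, edgeR, adjusted p = 0.0786) or the fourth 39 °C library (-0.18, edgeR, adjusted p = 0.0538). Hmgb2 is one of the G2M genes by which phases were scored, so its value in G1 cells is not independent of how these cells were picked. Hmgb1 fell by 1.18 and by 0.59, and Cdkn2d, a cyclin kinase inhibitor gene, fell by 1.48 in all cells, with 0.01 in G1 cells (edgeR, adjusted p = 0.912). The cell cycle inhibitor genes Cdkn1a and Cdkn2a, named after their values were seen, went opposite ways, with log2 fold changes of 0.81 and -0.47.

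**Figure D5:**
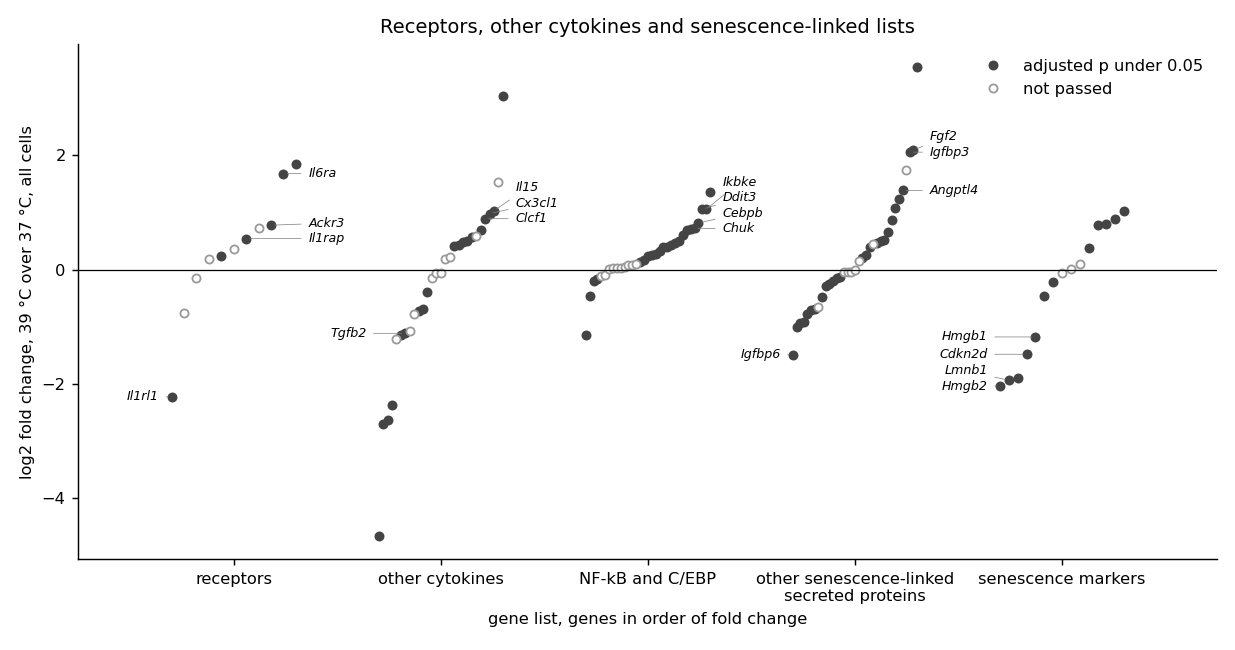
Log2 fold change of 39 °C over 37 °C in all cells for the tested genes of 5 lists, each in order of its values. Filled points passed an adjusted p of 0.05 (edgeR) and open points did not, and genes named by the rule in the processing section are labelled. Each list has points above and below 0.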

How the data were processed

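The authors captured cells with the Chromium Single Cell 3' V3 kit, and per the labels' processing notes used Cell Ranger 3.0.1 with mouse build mm10. They deposited, per library, whole-number UMI counts of each gene in each cell, with no normalization. Transcripts of the viral T antigen were not analysed here.

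The study's limits removed 334 cells by mitochondrial share (15%), 440 by the upper (6000) and 29 by the lower (200) limit of genes, and no doublet caller was run. No library was a copy of another at its temperature, as counts differed beyond sampling of molecules (chi-square divided by its degrees of freedom, 2.85 to 21.4). Phases came from Seurat 5.3.0 CellCycleScoring on all kept cells (42 of 43 S and 52 of 54 G2M genes found). UMIs were summed per library, or per library and class, and genes averaging 1 or more UMIs a library were tested with edgeR 4.0.16 (R 4.3.3, TMM, glmQLFit, glmQLFTest) and Benjamini-Hochberg adjustment over all genes. SE are those the F statistic implies. Class contrasts kept the library as a block, as G1 and cycling cells of a library are paired. In simulated counts, where 200 genes differed by 1 in log2, 191 were recovered in all cells (15824 genes), 187 in G1 cells (14776) and 177 in the class contrast at 39 °C (14772), with 6, 6 and 7 false calls. Every simulated gene had the same dispersion of 0.01 and no library effect. The simulation therefore cannot check the p-values of genes that vary more between libraries, nor the common trend used in the class contrasts. Shares of cells were computed in kept cells and in cells thinned to 5000 UMIs, with Python 3.11.15.

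Besides the 8 members, up to 4 genes per list were named, those with the largest changes past an adjusted p of 0.05, at least 5 CPM in the higher temperature and no overlap, and the 5 genes most like Il33 by each measure. Some genes that meet these rules are not reported here. Osmr, Il6st, the receptors near 0, the cytokines at 0 and the NF-kB subunit genes were named after their values were seen. The members and lists were chosen with earlier results of these data known. Replicate numbers did not pair the libraries. Alternatives were other scaling, filters, tools, phases and thinning, and each library left out in turn.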

Additional observations from a re-analysis of the deposited data

Results flagged for a closer look

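The contrast of G1 against cycling cells differed between temperatures, by a test of the difference itself, for 4 members. The log2 difference of the contrast (39 °C minus 37 °C) was -1.79 for Cxcl1, -0.81 for Cxcl12, -0.93 for Ccl2 and -0.92 for Ccl7. Against G2M cells alone, the differences for Cxcl1 and Cxcl12 passed the test, and those for Ccl2 (-0.28, edgeR, adjusted p = 0.434) and Ccl7 (-0.03, edgeR, adjusted p = 0.971) did not.

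Among 48 groups of 4 libraries examined, 2 held a library far from the other 3, and chance marks about 1 group in 20. Cxcl1 in G1 cells at 39 °C was lowest in the second library, at 1.93 CPM from 43 UMIs. Il6 in G1 cells at 39 °C was highest in the third library, at 0.295 CPM from 7 UMIs.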

How the results depend on the processing

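The rise of Lif and the fall of Ccl2, in all cells and in G1 cells, and the fall of Cxcl12 in G1 cells kept direction and side of the threshold under every alternative run. The higher Il33 in G1 than in cycling cells kept its direction too. The choice of Il33 favoured that direction, so this is no independent support. Without a test, the Il33 log2 fold change over alternatives ran from 2.34 to 2.56 in all cells and from 1.06 to 1.85 in G1 cells, the last with phases scored within each library. The cause of the changes below was not tested.

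The number of members that fell at 39 °C, 1 in all cells, was 3 with RLE factors and with DESeq2 (Ccl2, Cxcl12 and Csf1), 2 with filterByExpr, with no filter on low counts, with thinning to 5000 UMIs and with no upper limit on genes, and 1 to 3 with 1 library left out (3 without the first 37 °C library). In G1 cells the number that rose was 2 with no filter and 1 to 2 with 1 library left out, and the number that fell was 4 with no filter and 4 with phases scored within each library, in place of 2, and 2 to 3 with 1 library left out.

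With the replicate number as a block, 9617 genes passed in all cells against 9803 without it, and in G1 cells Ccl7 passed as lower (-0.34, edgeR, adjusted p = 0.0276). Deviations of same-numbered libraries correlated at -0.12, -0.12, -0.09 and 0.29, so the numbers did not pair them, and only the libraries numbered 4 correlated best with each other.

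Among class contrasts, thinning gave 2 lower members at 37 °C in place of 1 (Csf1 and Lif), and leaving out 1 library gave 1 to 2 (2 without the third 37 °C library, where Ccl2 passed). Against G2M cells alone at 39 °C, 3726 genes passed in place of 5947, with 2 members higher and 2 lower (Ccl7 reversed, at 0.77). The change of the contrast was called for 2398 genes, against 1022 with DESeq2, 964 with thinning and 1105 against G2M cells alone, where 2 members passed as lower in place of 4.

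Direction also changed for values that had not passed. In all cells Cxcl1 was 0.030 with thinning and -0.32 to 0.049 with a library left out, and Ccl7 was -0.0055 to 0.24. In G1 cells Il6 was 0.10 with thinning, Csf1 was -0.038 with phases scored within libraries, and Cdkn2d was -0.0086 with RLE factors, -0.0031 with totals only, -0.0033 with filterByExpr, -0.011 with DESeq2 and -0.022 to 0.035 with a library left out. In the 37 °C contrast Cxcl1 was 0.012 with totals only, 0.22 against S cells alone and -0.42 to 0.12 with a library left out, Cxcl12 was -0.12 and Ccl2 -0.070 against S cells alone, and Ccl2 was -0.23 to 0.15 with a library left out. In the 39 °C contrast Lif was 0.090 with thinning, 0.0031 with updated phase lists and 0.026 against S cells alone. The change of the contrast was -0.037 for Il33 against G2M cells alone (0.93 against S cells alone, no test), and for Csf1 0.016 with updated phase lists and -0.045 to 0.0015 with a library left out. Comparisons with S cells alone and limma-voom were added after seeing the data. The ratio of the thinned shares could not be computed for Il6 at 2000 UMIs, and depth limits Il6 throughout.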
